A study of Mus musculus with 18 samples.

Results

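The comparison described here set the end point of neuronal differentiation against the ES stage in control mouse embryonic stem (ES) cells, without knockdown of HPRT. It rested on 6 of the 18 Illumina MouseWG-6 v2 arrays of the series, 3 for control cells at the ES stage and 3 for control cells at the final neuronal stage. Probes entered the tests if detected on all 3 arrays of either stage, meaning that the detection p, the rank of the probe among the negative controls, lay under 0.05. Of 45281 probes on the array, 21451 met this rule. Both groups were D3 (ESD3) cells, an ES line of mouse strain 129s2/SvPas, transduced with a virus that carries an shRNA against luciferase, an insect gene that mouse cells lack, and selected with puromycin. The labels call the virus a retrovirus and the methods call it a lentiviral vector. ES-stage cells were grown over a feeder layer of primary mouse embryo fibroblasts, bFGF and LIF in the medium, the latter a cytokine that holds mouse ES cells undifferentiated. Neuronal-stage cells had passed through spherical neural masses (SNM), floating clusters of neural precursors, in a protocol for dopaminergic neurons that uses sonic hedgehog, FGF8 and ascorbic acid. For each stage the RNA of independently replicated cultures was pooled, and this 1 pool was read on 3 arrays. The SDs, SEs and p-values given thus describe how repeatable the arrays were, cultures were not replicated in them, and the precision of each mean is limited by 3 arrays a stage.

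Mouse ES cells are held in the pluripotent state by a circuit of transcription factors with Pou5f1 (Oct4), Sox2 and Nanog at its core. When they leave this state, neural cells pass from progenitors, marked by Sox and Notch pathway genes, to postmitotic neurons, which switch on proneural factors, a neuronal cytoskeleton and the machinery of the synapse. Midbrain dopaminergic neurons are set apart by the factors Lmx1a, Foxa2, Nr4a2 and Pitx3 and by Th and Slc6a3, the enzyme that starts dopamine synthesis and the transporter that takes dopamine back up. ES cells can also give mesoderm, including skeletal muscle, whose sarcomere genes are driven by the factors Myf5, Myod1, Myog and Myf6 through E-box motifs.

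Signals are given on a log2 scale after background correction and quantile normalization. Probes not detected had a median log2 signal of 4.37 to 4.38 on these 6 arrays, and the lowest signal detected lay between 4.67 and 4.88. Where no array of the dimmer stage detected a probe, its change is given as a bound. Such a probe passed the filter only through its brighter stage, so the filter favoured that direction for it. Other probes are said to be detected at both stages, though some were detected on only part of the dimmer arrays, so that their values there lie partly at background. Among the named genes called, the probe was detected on 1 of 3 ES arrays for Cacna1s, Cxcr4, Matn4, Mbp, Myh8, Slc17a6, Sparcl1, Tgfb2 and 1 probe of Tpm2, on 2 of 3 ES arrays for Atp2a1, Cox6a2, Dcx, Gfap, Isl1, Lhx1, Olig1, Wnt5a and Zic1, on 1 of 3 neuronal arrays for 1700006H03Rik, Cck, Eomes, Fgf4, Nppb and Pecam1, and on 2 of 3 neuronal arrays for Arc, Foxa2, Grhl2, Hoxc13, Krt42, Myl3 and Tek. The arrays detected 19755 to 22161 probes each. Arrays of one stage correlated at r = 0.994 to 0.997 across probes and arrays of different stages at r = 0.883 to 0.887. A probe was called where its adjusted p in limma was under 0.05 and its change at least 1.5-fold. By this rule 5955 probes (27.8%) were higher and 7160 (33.4%) lower at the neuronal stage, and the 3 arrays of one stage lay wholly above those of the other for 5939 and 7154 of them. The median log2 change over all probes tested was -0.13, and the median size of a called change was 1.23. Changes of at least 4-fold were found for 1815 probes that rose and 946 that fell. Rises made up 45.4% of the calls, and this share was 59.7% with background correction and no scaling between arrays and 37.3% with signals scaled to a common 75th percentile, so the balance of rises and falls depended on the scaling. The median over all probes was 0.14 and -0.24 in these settings. The plot of both stages shows the probes and 5 of the gene lists.

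**Figure D1:**
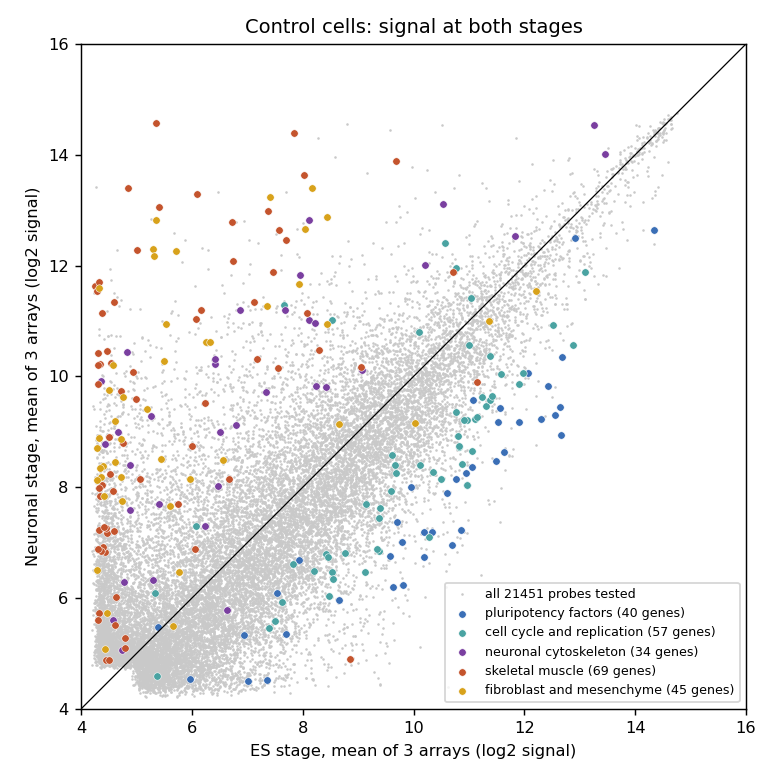
Mean log2 signal of the 21451 probes tested in control cells, over 3 ES arrays (x axis) and 3 neuronal arrays (y axis), with the genes of 5 lists in colour and the line of equal signal in black. Pluripotency and cell cycle genes lie mostly below the line, and neuronal, muscle and mesenchymal genes mostly above it.

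Hprt1, the purine salvage enzyme whose loss the series studies and which these cells retain, was read first. Its probe gave 12.04, 12.07 and 12.004 on the 3 ES arrays and 11.08, 11.03 and 11.03 on the 3 neuronal arrays, a log2 change of -0.99 (SE 0.0814, adjusted p = 7.01e-09), so it fell with the stage in cells that carry no shRNA against it. All 3 ES arrays lay above all 3 neuronal arrays. In the HPRT-knockdown cells of the same series the same probe gave 7.95 ± 0.194 at the ES stage and 6.60 ± 0.0424 at the neuronal stage (SD, n = 3 arrays each).

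Marker genes were used to check the stage labels. The 8 ES cell markers were detected on all arrays of both stages, and their summed signal, on the log2 scale, was 15.58 to 15.61 at the ES stage and 13.30 to 13.34 at the neuronal stage. All 8 fell. The summed signal of 8 pan-neuronal markers was 10.70 to 10.72 at the ES stage and 12.61 to 12.77 at the neuronal stage, and 5 of them rose. Of the others, Snap25 and Nefl, a fusion protein of the synapse and a neurofilament subunit, were detected on no array of either stage. The 8 dopaminergic markers summed to 9.47 to 9.58 at the ES stage and 9.78 to 9.94 at the neuronal stage, with 3 that rose, 1 that fell and 1 tested and not called. The sums add signals before the log is taken, so bright probes weigh most in them. Ddc, the dopaminergic marker tested and not called, alone had means of 9.06 and 9.49 at these stages. Slc6a3 and Pitx3 were detected on no array of either stage. The Th probe was detected on no ES array and on 1 of 3 neuronal arrays, with 4.51, 4.26 and 4.43 on the 3 ES arrays and 4.52, 4.54 and 4.69 on the 3 neuronal arrays, so it was not tested, and all 6 values stood near background. Markers of other tissues moved beside the neuronal ones. Of 8 skeletal muscle markers 7 rose, and their summed signal was 10.31 to 10.44 at the ES stage and 15.66 to 15.70 at the neuronal stage. Of 8 fibroblast markers 7 rose, from 9.56 to 9.66 before to 14.44 to 14.63 after. All 6 astrocyte markers rose, and their sum was 9.81 to 9.84 at the ES stage and 12.84 to 12.97 at the neuronal stage. The 5 microglial markers summed to 6.85 to 7.09 and 6.95 to 7.02 at these stages, and Cx3cr1, Tyrobp and C1qa among them were detected on no array of either stage. The sum of 6 oligodendrocyte markers was 7.36 to 7.65 and 9.77 to 9.90, that of 4 endothelial markers 8.63 to 8.69 and 7.59 to 7.67, and that of 4 endoderm markers 9.83 to 9.87 and 7.31 to 7.34. Among the endoderm markers Sox17 alone had means of 9.64 and 5.24. The neuronal-stage RNA therefore held transcripts of neurons, glia, muscle, mesenchyme and ES cells. In bulk RNA, fewer cells of a type and less RNA per cell cannot be told apart.

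Pluripotency genes fell as a group and stayed detectable. Of 42 genes on the array, 40 passed detection, 0 rose, 38 fell and 2 were not called, beside 33.4% of all probes tested that were called lower. Their median log2 change was -2.70 (-2.69 with genes below detection at one stage set to their bound), against -0.13 over all probes tested, and 37 of the 40 genes detected on all ES arrays were also detected on all neuronal arrays. Pou5f1 gave 12.27, 12.37 and 12.28 on the 3 ES arrays and 9.31, 9.24 and 9.16 on the 3 neuronal arrays, a log2 change of -3.07 (SE 0.0795, adjusted p = 2.02e-15). Nanog, its partner in the core circuit, gave 12.76, 12.64 and 12.63 on the 3 ES arrays and 10.37, 10.37 and 10.31 on the 3 neuronal arrays, a log2 change of -2.32 (SE 0.0783, adjusted p = 5.80e-14). In both genes the stages did not overlap, and the SNM arrays, 9.96, 10.08 and 9.81 for Pou5f1 and 10.57, 10.61 and 10.60 for Nanog, lay between them. Sox2, which neural progenitors also express, fell as well, with 11.13, 10.96 and 11.11 on the 3 ES arrays and 9.43, 9.68 and 9.58 on the 3 neuronal arrays and a log2 change of -1.500 (SE 0.134, adjusted p = 2.09e-08). Zfp42 (Rex1), a marker lost early when ES cells differentiate, gave 12.59, 12.70 and 12.71 on the 3 ES arrays and 8.95, 8.79 and 9.06 on the 3 neuronal arrays, a log2 change of -3.73 (SE 0.103, adjusted p = 4.37e-15), the largest fall of the list. Other members that fell were Trim71 (-3.72), a repressor of let-7 targets, Nr5a2 (-3.44) and Esrrb (-3.19), nuclear receptors of the circuit, Fbxo15 (-3.26), Klf2 (-2.99), Klf4 (-1.95) and Lin28a (-2.81), with the log2 change in parentheses. Members detected on no neuronal array were Rex2, at least 6.22-fold lower at the neuronal stage (adjusted p = 1.54e-09), and Nr0b1, at least 2.38-fold lower at the neuronal stage (adjusted p = 3.47e-08). Spp1, which encodes osteopontin, and Fut4, which makes the SSEA-1 epitope, were not called, at -0.42 and 0.10, though Spp1 was with the 75th percentile, at -0.81.

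Genes of cell division fell together. Of 62 genes on the array, 57 passed detection, 7 rose, 48 fell and 2 were not called, with a median log2 change of -1.74. Mcm2, Mcm3, Mcm4, Mcm5, Mcm6 and Mcm7, the subunits of the replicative helicase, all fell, with log2 changes of -2.34, -2.65, -1.59, -2.32, -1.89 and -1.89. Mki67, the Ki-67 proliferation antigen, gave 9.16, 9.11 and 9.16 on the 3 ES arrays and 7.76, 7.65 and 7.66 on the 3 neuronal arrays, a log2 change of -1.45 (SE 0.0911, adjusted p = 2.01e-10), and the stages did not overlap. The largest fall was that of Cdc6, which loads the helicase at origins, with a log2 change of -3.18 (SE 0.0948, adjusted p = 1.20e-14). The 7 genes that rose held 4 inhibitors of cyclin-dependent kinases, Cdkn1c (2.48), Cdkn1a (1.84), Cdkn2c (1.23) and Cdkn1b (0.76). They also held Ccnd2 (3.62) and Ccnd1 (1.19), D-type cyclins that many precursor cells use, and Gadd45g (0.70). Without background correction Cdkn1b was not called, at 0.39 with quantile normalization and 0.24 with the 75th percentile, nor was it with an offset of 50, at 0.46. Gadd45g was not called with the 75th percentile, at 0.44, and Cdkn2c was not in the methods' paired t-test. At the SNM stage the median of the list had been -0.45 against the ES stage, so most of the difference lay between the SNM and neuronal stages.

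Genes of DNA methylation and the germ line fell as well. Of 28 genes on the array, 21 passed detection, 1 rose, 18 fell and 2 were not called, with a median of -1.86. Detection on all arrays of both stages held for 14 genes, of which 11 fell. Dnmt3b and Dnmt3l, a de novo methyltransferase and its cofactor, changed by -2.25 and -2.33, and Dnmt1 (-1.43) and Uhrf1 (-1.86), which copy methylation at replication, fell too. The list also holds germ-line genes that mouse ES cells express. Dazl, a germ cell RNA-binding protein, gave 10.22, 10.18 and 10.21 on the 3 ES arrays and 6.07, 6.11 and 5.86 on the 3 neuronal arrays, a log2 change of -4.19 (SE 0.0802, adjusted p = 5.47e-17). Tex19.1 changed by -4.19, and Tex19.2, another member of the family, was at least 25.8-fold lower at the neuronal stage (adjusted p = 2.67e-17).

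The lists of surface epithelium, endoderm and trophoblast each held more falls than rises, as did all probes tested, with 33.4% lower and 27.8% higher. For surface epithelium, of 31 genes on the array, 23 passed detection, 2 rose, 19 fell and 2 were not called, with a median of -2.11. Cdh1 (E-cadherin), the adhesion molecule that holds ES cell colonies together, gave 10.89, 10.78 and 10.91 on the 3 ES arrays and 7.37, 7.15 and 7.13 on the 3 neuronal arrays, a log2 change of -3.64 (SE 0.0693, adjusted p = 5.10e-17). Krt17, a keratin, had the largest fall of all genes detected at both stages, with 10.15, 10.11 and 10.10 on the 3 ES arrays and 5.23, 5.13 and 5.02 on the 3 neuronal arrays and a log2 change of -4.995 (SE 0.0829, adjusted p = 1.48e-17). Grhl2, which maintains epithelial junctions, changed by -4.01, and the claudins Cldn4 and Cldn6 by -3.66 and -2.99. Trp63 and Krt10 rose, Trp63 by at least 1.4-fold and Krt10 by 0.93 on the log2 scale. The call of Trp63 was lost without background correction, at 0.51 with quantile normalization and 0.22 with the 75th percentile, and with an offset of 50, at 0.44. Among endoderm genes, 13 of 35 on the array fell and 4 rose, with 24 passing detection and a median of -0.80 (-0.68 with genes below detection at one stage set to their bound). Sox17, Gata6 and Sox7, factors of primitive endoderm, changed by -4.41, -3.79 and -3.29, and Lama1, a laminin that parietal endoderm secretes, by -3.17. Cxcr4, the receptor of a chemokine that guides many migrating cells, rose by 3.16. Afp, Alb and Apoa1, genes of liver and visceral endoderm, did not pass detection. Of 29 trophoblast genes, 18 passed, 9 fell and 6 rose, with a median of -0.70. Under the other scalings 7 or 8 fell and 6 rose. Gata3 and Gata2 were among those that rose, at 1.79 and 1.03, and Tcfap2c and Prl2c2 among those that fell, at -1.62 and -2.39.

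Genes of neural progenitors rose. Of 30 genes on the array, 23 passed detection, 19 rose, 1 fell and 3 were not called, beside 27.8% of all probes tested that were called higher, and the median log2 change was 2.09 (1.97 with genes below detection at one stage set to their bound). Zic1, a factor of the dorsal neural tube, gave 5.06, 5.12 and 4.66 on the 3 ES arrays and 10.61, 10.57 and 10.62 on the 3 neuronal arrays, a log2 change of 5.65 (SE 0.139, adjusted p = 1.08e-15, detected on 2 of the 3 ES arrays). Sox11, which is expressed as progenitors become neurons, gave 8.86, 8.76 and 8.84 on the 3 ES arrays and 12.47, 12.48 and 12.38 on the 3 neuronal arrays, a log2 change of 3.62 (SE 0.0583, adjusted p = 1.09e-17). Nes, the intermediate filament of progenitors, gave 7.43, 7.73 and 7.56 on the 3 ES arrays and 9.52, 9.18 and 9.34 on the 3 neuronal arrays, a log2 change of 1.77 (SE 0.123, adjusted p = 7.92e-10). In these 3 genes the stages did not overlap. Hes5, a target of Notch signalling, was at least 7.35-fold higher at the neuronal stage (adjusted p = 6.24e-14). Notch1 itself, with mean log2 signals of 8.44 ± 0.151 at the ES stage and 8.44 ± 0.042 at the neuronal stage (SD, n = 3 arrays), was not called, nor was Hes1 with a change of 0.38, which was called with no scaling, at 0.72. Pax6, a factor of cortical and spinal progenitors, fell by 0.84 on the log2 scale, a call that each other scaling ended. Sox1, Sox3 and Msi1 did not pass detection at either stage. The list had reached a median of 2.18 at the SNM stage. With detection required on all ES and neuronal arrays, 15 genes of it remained and 12 rose.

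Transcription factors of young neurons followed. Of 32 genes on the array, 25 passed detection, 20 rose, 1 fell and 4 were not called, with a median of 2.10. Requiring detection on all arrays of both stages left 9 genes, of which 6 rose. Ebf3 gave 5.95, 6.20 and 6.23 on the 3 ES arrays and 11.14, 11.28 and 11.22 on the 3 neuronal arrays, a log2 change of 5.08 (SE 0.077, adjusted p = 6.13e-18), and Lhx1, a factor of spinal and hindbrain interneurons, changed by 4.18. Myt1l, a zinc finger factor that represses non-neuronal genes, was at least 22.8-fold higher at the neuronal stage (adjusted p = 2.24e-16). Isl1, a factor of motor and sensory neurons, changed by 3.17. Neurog2 and Neurod4, which start neurogenesis, rose by 1.09 and 0.96, and their mean signals had been higher at the SNM stage, at 6.57 and 7.67 against 5.58 and 5.66 at the neuronal stage. Their calls were lost without background correction and with an offset of 50. Neurod1 was not called at -0.02, and Eomes, a factor of mesendoderm and of cortical intermediate progenitors, fell by 0.86 on the log2 scale. The call of Eomes was lost with quantile normalization and no background correction, with no scaling and with an offset of 50, at -0.38, -0.55 and -0.44.

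Genes of the neuronal cytoskeleton rose. Of 36 genes on the array, 34 passed detection, 31 rose, 1 fell and 2 were not called, with a median of 2.43, and 23 of the genes were detected on all arrays of both stages. Dcx (doublecortin), a microtubule protein of migrating neurons, gave 4.49, 5.02 and 4.95 on the 3 ES arrays and 10.38, 10.38 and 10.55 on the 3 neuronal arrays, a log2 change of 5.62 (SE 0.111, adjusted p = 7.96e-17, detected on 2 of the 3 ES arrays). Gap43, a protein of growth cones, gave 7.92, 7.92 and 8.01 on the 3 ES arrays and 11.78, 11.92 and 11.82 on the 3 neuronal arrays, a log2 change of 3.89 (SE 0.096, adjusted p = 1.10e-15). Mapt (tau) and Map2 (listed as Mtap2), the microtubule proteins of axons and dendrites, gave log2 changes of 3.82 and 4.33, and Stmn4 was at least 33-fold higher at the neuronal stage (adjusted p = 2.65e-18). The stages did not overlap in any of these. Stmn2, which was already well detected in ES cells, gave 10.26, 10.17 and 10.18 on the 3 ES arrays and 11.99, 12.02 and 12.01 on the 3 neuronal arrays, a log2 change of 1.81 (SE 0.0546, adjusted p = 1.44e-14). Tubb3 (β-III tubulin), the usual antigen for neurons, was detected on no ES array and on all neuronal arrays, with 4.65, 4.83 and 4.75 on the 3 ES arrays and 5.11, 4.97 and 5.10 on the 3 neuronal arrays. These values stand near the detection limit, and the log2 change of 0.31 was not called (adjusted p = 0.0463, under 1.5-fold). Prph (peripherin), a filament of peripheral neurons, fell by 0.84 on the log2 scale, a call that each other scaling and an offset of 50 ended, at -0.36 to -0.58.

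Neural RNA-binding proteins changed in both directions. Of 22 genes on the array, 17 passed detection, 9 rose, 3 fell and 5 were not called, with a median of 0.61. With detection required on all arrays of both stages, 9 genes remained and 4 rose. Rbfox1 (listed as A2bp1) was at least 45.6-fold higher at the neuronal stage (adjusted p = 1.20e-13), and Rbfox3 (listed as D11Bwg0517e), the NeuN antigen of mature neurons, gave 5.11, 5.28 and 4.93 on the 3 ES arrays and 8.71, 9.37 and 9.25 on the 3 neuronal arrays, a log2 change of 4.00 (SE 0.186, adjusted p = 3.70e-12). Elavl3 and Elavl4, the neuronal Hu proteins, changed by 2.82 and 3.26. Ptbp1, which blocks neuronal splicing in other cells, fell by 0.84. Ptbp2, its neuronal counterpart, was detected on all ES arrays and on no neuronal array, with 4.94, 5.59 and 5.28 on the 3 ES arrays and 4.60, 4.50 and 4.66 on the 3 neuronal arrays, at least 1.48-fold lower at the neuronal stage (adjusted p = 3.19e-04). The call of Ptbp2 was lost without ES array 2, at a fitted change of -0.53, under each other scaling and an offset of 50, at -0.31 to -0.55, and in the methods' paired t-test.

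Genes of the synapse rose on both of its sides. For vesicles and release, of 44 genes on the array, 35 passed detection, 27 rose, 3 fell and 5 were not called. The median was 2.02 (2.00 with genes below detection at one stage set to their bound). With detection required on all arrays of both stages, 21 genes remained and 17 rose. Syt1, the calcium sensor of release, gave 4.33, 4.52 and 4.44 on the 3 ES arrays and 9.51, 9.68 and 9.66 on the 3 neuronal arrays and was at least 26.9-fold higher at the neuronal stage (adjusted p = 3.52e-17). Syp (synaptophysin), a membrane protein of synaptic vesicles, gave 6.25, 6.82 and 6.32 on the 3 ES arrays and 10.18, 10.01 and 9.92 on the 3 neuronal arrays, a log2 change of 3.57 (SE 0.143, adjusted p = 5.47e-13). All neuronal arrays lay above all ES arrays in both genes. Rab3a and Vamp2, parts of the docking and fusion machinery, changed by 3.99 and 2.05. Stx1a changed by 0.72, while Unc13a, a priming factor, was at least 3.29-fold lower at the neuronal stage (adjusted p = 1.64e-12). Syngr1 fell in its brightest probe (-0.90) and rose in 2 other probes, so its direction depended on the probe, and the fall was not called with no scaling, at -0.51. Among receptors and postsynaptic genes, 25 of 43 rose, 0 fell and 16 did not pass detection, and 17 of the genes were detected on no ES array and all neuronal arrays. With signals scaled to a common 75th percentile and no background correction 15 rose, with a median of 0.63 against 1.71, and 5 rose where detection at both stages was required. The AMPA receptor subunits Gria1, Gria2, Gria3 and Gria4 all rose, though Gria4 was not called with the 75th percentile, at 0.496. Gria3 was at least 24.2-fold higher at the neuronal stage (adjusted p = 8.26e-17), and Gria2, which was detected at both stages, changed by 2.61. The NMDA receptor subunit Grin1 and the scaffold proteins Shank1 and Shank2 did not pass detection. Of 48 ion channel genes, 27 passed, 22 rose and 1 fell. The rises were 12 with the 75th percentile and 6 with detection at both stages. Kcnd2, a potassium channel of dendrites, was at least 10-fold higher at the neuronal stage (adjusted p = 1.76e-14), and Kcnk1, a leak channel, fell by 0.84, a call lost with no scaling, at -0.46. Cacng1 and Cacna1s, which rose with this list, are calcium channel subunits of skeletal muscle, and Cacna1s was not called with the 75th percentile, at 0.46.

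Transmitter genes that rose included those of glutamate, GABA and several peptides. Of 36 genes on the array, 23 passed detection, 11 rose, 6 fell and 6 were not called. The median was 0.45 (0.43 with genes below detection at one stage set to their bound). Requiring detection on all arrays of both stages left 13 genes, of which 4 rose. Slc17a6 (VGLUT2), which loads vesicles with glutamate, gave 4.90, 4.50 and 4.40 on the 3 ES arrays and 9.52, 9.72 and 9.63 on the 3 neuronal arrays, a log2 change of 5.02 (SE 0.12, adjusted p = 7.29e-16, detected on 1 of the 3 ES arrays). Slc32a1 (VGAT), the vesicular transporter of GABA and glycine, gave 4.90, 5.31 and 5.24 on the 3 ES arrays and 9.64, 9.52 and 9.55 on the 3 neuronal arrays, a log2 change of 4.42 (SE 0.143, adjusted p = 3.27e-14), and Gad1, which makes GABA, gave 7.001, 7.03 and 7.03 on the 3 ES arrays and 9.41, 9.52 and 9.43 on the 3 neuronal arrays, a log2 change of 2.44 (SE 0.0732, adjusted p = 1.33e-14). In each of the 3 the stages did not overlap. The peptide genes Sst and Npy rose, Sst by 5.30 and Npy by at least 25.7-fold. The cholinergic genes Chat and Slc18a3, the serotonergic genes Slc6a4 and Fev, and Th and Slc6a3 did not pass detection. Genes that fell were Cck (-2.72), Trh (-2.62) and Calca (-1.80), which encode peptides, and Hdc (-2.55), which makes histamine.

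Genes of the dopaminergic lineage gave a mixed picture. Of 35 genes on the array, 25 passed detection, 16 rose, 6 fell and 3 were not called, with a median of 0.77 (0.38 with genes below detection at one stage set to their bound). Dlk1 and Ebf3, which other cell types also express, rose by 6.02 and 5.08. En1, a factor of the midbrain and hindbrain, gave 6.37, 6.41 and 6.35 on the 3 ES arrays and 10.02, 9.96 and 9.75 on the 3 neuronal arrays, a log2 change of 3.54 (SE 0.0761, adjusted p = 2.21e-16), and En2 changed by 1.64. The early specification factor Lmx1a was at least 1.51-fold higher at the neuronal stage (adjusted p = 1.86e-07), Nr4a2 (Nurr1) was at least 1.17-fold higher at the neuronal stage (adjusted p = 0.00748), and Slc18a2 (VMAT2), the vesicular monoamine transporter, was at least 1.3-fold higher at the neuronal stage (adjusted p = 5.49e-08). These 3 genes gave 5.45, 5.40 and 5.54, 4.93, 5.09 and 5.25 and 5.22, 5.09 and 5.42 on the neuronal arrays, close to the lowest signal detected, with no overlap with the ES stage. Without background correction none of the 3 was called, nor was any with an offset of 50. The change of Nr4a2 was -0.012 with signals scaled to a common 75th percentile. Leaving out neuronal array 3 also ended the call of Nr4a2, at 0.55. Ddc, which makes dopamine from L-DOPA and was well detected in ES cells, was not called at 0.43 (adjusted p = 1.69e-04, under 1.5-fold), though it was with no scaling, at 0.66. Foxa2 and Otx2, which specify midbrain dopaminergic progenitors and also act in endoderm and in early embryonic cells, fell, with log2 changes of -1.47 and -1.75. Gch1, Qdpr and Spr, which supply the cofactor of Th, fell, with changes of -0.79, -0.64 and -0.64, and the call of Qdpr was lost without ES array 2, at -0.57. With no scaling between arrays none of the 3 was called, at -0.35, -0.46 and -0.22, and Spr also lost its call without background correction and with an offset of 50. With signals scaled to a common 75th percentile and no background correction, 9 genes of the list rose and 5 fell. Rises numbered 10 with quantile normalization alone, 9 with an offset of 50, 10 at a minimum fold of 2 and 7 with detection at both stages. Of all probes tested, 27.8% were called higher and 33.4% lower.

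Genes used as marks of region were read next, the Hox genes for hindbrain and spinal cord and factors of the forebrain and midbrain. The neuronal-stage RNA also held muscle and mesenchyme transcripts, and which cells carried the Hox transcripts was not tested. Of 39 Hox genes, 22 passed, 14 rose, 2 fell and 6 were not called, with a median of 1.22. Of all probes tested, 27.8% were called higher and 33.4% lower. Without background correction 11 Hox genes rose, both with quantile normalization and with the 75th percentile. With detection required on all arrays of both stages, 11 remained and 7 rose. Hoxb5 was detected on no ES or SNM array and on all neuronal arrays, with 4.35, 4.43 and 4.26 on the 3 ES arrays and 9.12, 9.18 and 9.28 on the 3 neuronal arrays, at least 20.1-fold higher at the neuronal stage (adjusted p = 1.85e-17). Hoxb3, another gene of the HoxB cluster, was at least 4.35-fold higher at the neuronal stage (adjusted p = 2.15e-12), and Hoxd8 and Hoxb4 changed by 3.62 and 2.74. The genes that rose belong to the paralogue groups of hindbrain and of cervical and thoracic levels, from Hoxa2 and Hoxb2 at 2.09 and 2.18 to Hoxd9 (at least 5.96-fold). Hoxc13 fell, at -1.44. At the SNM stage the median over the list was -0.11, and 11 genes stood at least 1 log2 unit higher at the neuronal than at the SNM stage. Of 34 forebrain and midbrain factors, 16 passed, 9 rose and 3 fell, with a median of 0.75 (0.45 with genes below detection at one stage set to their bound). Irx3 and Irx5 changed by 2.96 and 3.37, and Gbx2 and Otx2, which ES cells also express, fell, at -2.13 and -1.75.

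Astrocyte and radial glia genes rose. Of 32 genes on the array, 31 passed detection, 25 rose, 1 fell and 5 were not called. The median was 2.90 (2.88 with genes below detection at one stage set to their bound). Detection on all arrays of both stages held for 20 genes, of which 15 rose. Gfap, the filament of astrocytes, gave 4.80, 5.06 and 4.92 on the 3 ES arrays and 9.89, 9.74 and 9.67 on the 3 neuronal arrays, a log2 change of 4.84 (SE 0.0963, adjusted p = 8.79e-17, detected on 2 of the 3 ES arrays). Slc1a3 (GLAST), a glutamate transporter of radial glia, gave 7.55, 7.60 and 7.68 on the 3 ES arrays and 12.17, 12.29 and 12.10 on the 3 neuronal arrays, a log2 change of 4.58 (SE 0.078, adjusted p = 1.87e-17). Aqp4, the water channel of astrocyte endfeet, was at least 14.8-fold higher at the neuronal stage (adjusted p = 3.87e-09), with 8.11, 9.24 and 8.91 on the neuronal arrays. The stages did not overlap in any of the 3. Fabp7, Sox9 and Sparcl1 changed by 4.63, 3.73 and 5.37. Gja1 (connexin 43) was high at both stages and not called at 0.12, and Apoe fell by 0.76, a call lost with no scaling, at -0.58. Oligodendrocyte genes changed in both directions. Of 29 genes on the array, 19 passed detection, 11 rose, 4 fell and 4 were not called, with a median of 0.82 (0.80 with genes below detection at one stage set to their bound) at the neuronal stage and 2.45 at the SNM stage. Without background correction 7 rose with quantile normalization and 6 with the 75th percentile, where the median was 0.27, and 4 rose where detection at both stages was required. Mbp, a main protein of myelin, gave 4.89, 4.76 and 4.63 on the 3 ES arrays and 8.51, 8.36 and 8.35 on the 3 neuronal arrays, a log2 change of 3.65 (SE 0.131, adjusted p = 1.38e-13, detected on 1 of the 3 ES arrays), and had read 11.87, 11.85 and 11.79 on the SNM arrays. Sox10, a factor of oligodendrocytes and neural crest, was at least 5.61-fold higher at the neuronal stage (adjusted p = 1.01e-14), with a mean of 7.36 at the neuronal and 11.01 at the SNM stage. Olig1 changed by 6.35, while Olig2 was detected on no ES array and 1 neuronal array and was not tested. Cldn11, the claudin of myelin tight junctions, which other cells also make, gave 5.20, 5.58 and 4.998 on the 3 ES arrays and 12.81, 12.86 and 12.85 on the 3 neuronal arrays, a log2 change of 7.58 (SE 0.13, adjusted p = 1.93e-17). Of 29 neural crest and Schwann cell genes, 17 passed, 11 rose and 4 fell, against 27.8% and 33.4% of all probes. Requiring detection on all arrays of both stages left 12 of them, of which 7 rose. Ednrb, the endothelin receptor that crest cells need, changed by 5.64, and Erbb3 did not pass detection.

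**Figure D2:**
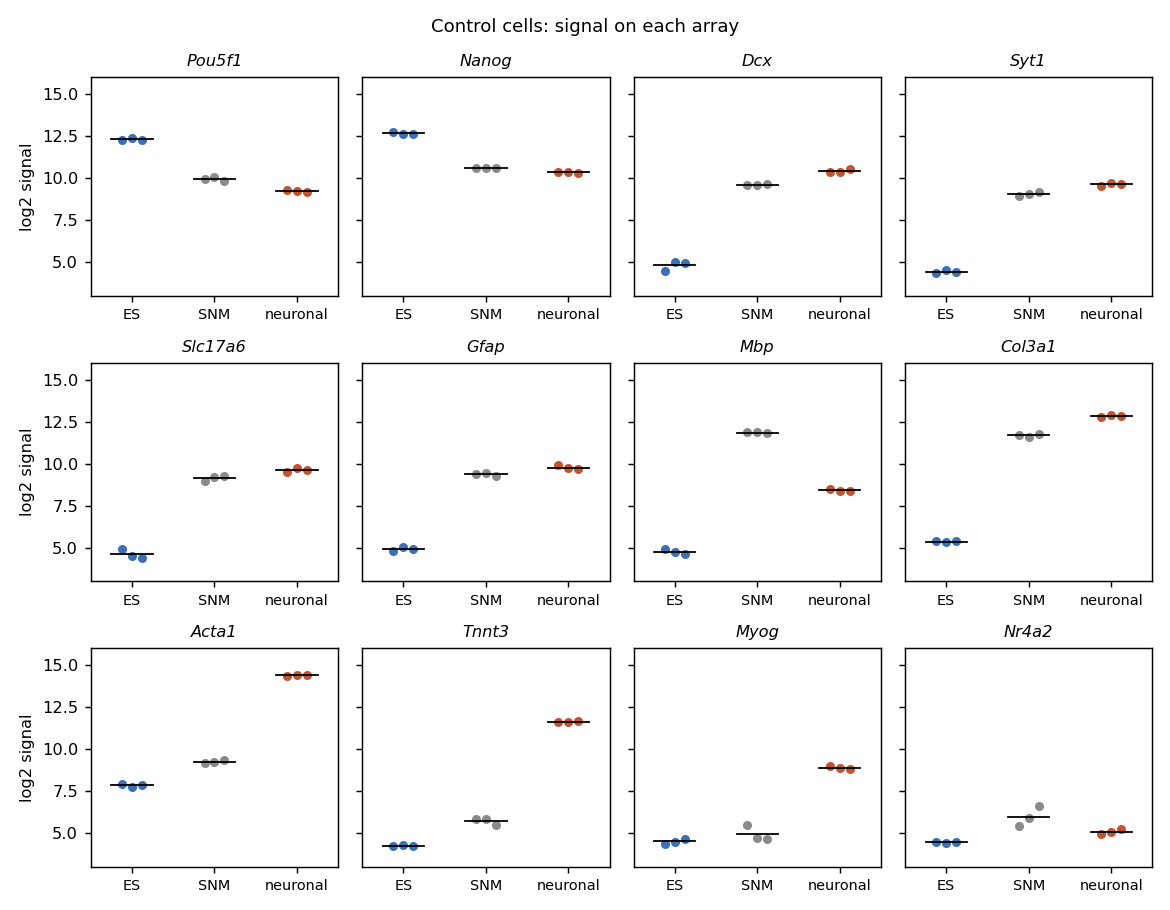
Log2 signal of 12 genes on each of the 9 arrays of control cells, at 3 stages (y axis), with points for arrays and black bars for the means of 3 arrays. Pou5f1 and Nanog stay well above the detection limit at the neuronal stage, Mbp peaks at the SNM stage, and Acta1, Tnnt3 and Myog rise between the SNM and neuronal stages.

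Most skeletal muscle genes that passed detection rose. Of 76 genes on the array, 69 passed detection, 63 rose, 2 fell and 4 were not called. Of all probes tested, 27.8% were called higher. The median was 3.67 (3.29 with genes below detection at one stage set to their bound), against -0.13 over all probes, and 32 genes were detected on no ES array and all neuronal arrays. Where detection on all arrays of both stages was required, 27 genes remained and 26 rose. At the SNM stage the median over the list was 0.06, and 61 genes stood at least 1 log2 unit higher at the neuronal than at the SNM stage. The genes are given here by their place in the muscle fibre. Upstream sequences are shown for 2 acetylcholine receptor subunits, a myosin and an actin gene, which all rose. The 4 genes shown all hold the motif printed in capitals, which not every gene of the list does. Each run is the 250 bases before a RefSeq start in GRCm38.p6, printed 5′ to 3′ on the gene's own strand, with the E-box CAGCTG, the form that myogenic factors favour, in capitals. CAGCTG reads the same on both strands.
Chrna1 (chr2:73580339-73580588, minus strand): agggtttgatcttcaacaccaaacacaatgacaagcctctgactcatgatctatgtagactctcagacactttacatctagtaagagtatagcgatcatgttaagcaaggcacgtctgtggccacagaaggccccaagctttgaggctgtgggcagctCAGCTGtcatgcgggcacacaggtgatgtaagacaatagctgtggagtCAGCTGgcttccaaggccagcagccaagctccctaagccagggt
Chrng (chr1:87205561-87205810, plus strand): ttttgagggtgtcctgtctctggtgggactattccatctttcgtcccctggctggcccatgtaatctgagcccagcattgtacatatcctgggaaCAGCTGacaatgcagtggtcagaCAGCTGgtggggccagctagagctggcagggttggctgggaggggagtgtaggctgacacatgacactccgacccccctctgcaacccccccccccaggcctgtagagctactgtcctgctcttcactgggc
Mylpf (chr7:127211358-127211607, plus strand): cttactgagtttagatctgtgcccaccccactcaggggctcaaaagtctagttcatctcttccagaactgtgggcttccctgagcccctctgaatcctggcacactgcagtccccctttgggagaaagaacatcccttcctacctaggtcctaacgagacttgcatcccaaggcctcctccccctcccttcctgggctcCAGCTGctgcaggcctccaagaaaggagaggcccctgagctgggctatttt
Acta1 (chr8:123894776-123895025, minus strand): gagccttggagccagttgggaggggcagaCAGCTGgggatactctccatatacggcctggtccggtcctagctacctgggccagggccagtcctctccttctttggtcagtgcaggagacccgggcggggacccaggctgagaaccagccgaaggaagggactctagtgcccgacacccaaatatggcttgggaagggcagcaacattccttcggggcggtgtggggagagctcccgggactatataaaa
Chrna1 holds the motif 92 and 44 bases before the start and Chrng 155 and 132 bases before it, counted from the first base of the motif, and Mylpf and Acta1 hold it once. Of the 54 muscle genes with an entry in the promoter table, 27 (50.0%) held CAGCTG in the 250 bases before at least 1 start, as did 14.7% of all 27025 genes of the table. For the 24 cytoskeleton genes of neurons with an entry the share was 8.33%, and for the 28 pluripotency genes with an entry it was 21.4%. A match is a description of the letters, and binding was not measured.

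In ES cells the first subunits of the acetylcholine receptor shown above were not detected. Chrna1, the α subunit, gave 4.28, 4.37 and 4.34 on the 3 ES arrays and 11.80, 11.68 and 11.62 on the 3 neuronal arrays and was at least 114-fold higher at the neuronal stage (adjusted p = 2.34e-19). Chrng, the γ subunit of the fetal receptor, gave 4.46, 4.75 and 4.55 on the 3 ES arrays and 11.38, 11.31 and 11.33 on the 3 neuronal arrays and was at least 88.6-fold higher at the neuronal stage (adjusted p = 2.65e-18). Chrnd, the δ subunit, was at least 1.66-fold higher at the neuronal stage (adjusted p = 2.38e-10), a call lost with the 75th percentile, at 0.397, and Chrnb1, which other cells also express, changed by 3.14. Chrne, the ε subunit that replaces γ in adult muscle, was not called at 0.48, though it was without neuronal array 2, at 0.64, and with no scaling, at 0.68. Whether the fetal and adult subunits differed in their change was not tested. Among thick filament genes, Myl1, a myosin light chain, had the largest rise of all genes detected at both stages, with 5.38, 5.55 and 5.14 on the 3 ES arrays and 14.60, 14.58 and 14.56 on the 3 neuronal arrays and a log2 change of 9.23 (SE 0.348, adjusted p = 2.52e-13). Mylpf, the fast regulatory light chain, gave 9.80, 9.68 and 9.57 on the 3 ES arrays and 13.94, 13.82 and 13.90 on the 3 neuronal arrays, a log2 change of 4.20 (SE 0.0937, adjusted p = 3.33e-16). The perinatal and embryonic myosin heavy chains Myh8 and Myh3 changed by 8.56 and 5.61, and the adult fast chains Myh1 and Myh4 were at least 47.1 and 41.1-fold higher. Myh7, the slow chain, did not pass detection. Of the thin filament, Acta1 (skeletal α-actin) gave 7.92, 7.77 and 7.85 on the 3 ES arrays and 14.35, 14.39 and 14.42 on the 3 neuronal arrays, a log2 change of 6.54 (SE 0.173, adjusted p = 2.65e-15). Tnnt3, the fast troponin T, gave 4.26, 4.29 and 4.22 on the 3 ES arrays and 11.64, 11.59 and 11.66 on the 3 neuronal arrays and was at least 109-fold higher at the neuronal stage (adjusted p = 2.65e-18). The other troponins Tnni2, Tnnc2 and Tnnc1 changed by 7.64, 7.21 and 6.06. In all of these genes the 3 neuronal arrays lay above the 3 ES arrays.

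Genes that couple excitation to contraction rose too. Atp2a1 (SERCA1), the calcium pump of the sarcoplasmic reticulum, gave 4.86, 5.10 and 5.06 on the 3 ES arrays and 12.27, 12.29 and 12.27 on the 3 neuronal arrays, a log2 change of 7.27 (SE 0.123, adjusted p = 1.84e-17, detected on 2 of the 3 ES arrays), and its inhibitor Sln was at least 103-fold higher at the neuronal stage (adjusted p = 7.84e-19). Ryr1, the release channel, changed by 1.47. Of the 4 myogenic factors, Myog, which drives terminal differentiation, gave 4.38, 4.50 and 4.65 on the 3 ES arrays and 8.98, 8.86 and 8.85 on the 3 neuronal arrays and was at least 16.3-fold higher at the neuronal stage (adjusted p = 1.43e-13). Myf6 and Myf5 were at least 10.4 and 1.81-fold higher, and Myf5 was not called with the 75th percentile, at 0.45. Myod1 was detected on all neuronal arrays and no ES array, with 4.76, 4.85 and 5.06 at the neuronal stage, and was not called at under 1.5-fold (adjusted p = 8.70e-05). Pax3 and Pax7, the factors of muscle progenitors, did not pass detection. The list's 2 falls were Myl3, a ventricular and slow light chain, with -3.95, and Tpm3, with -1.24 in its brightest probe, while its 3 other probes rose. Of 25 heart and smooth muscle genes, 12 passed detection, 6 rose and 3 fell. Requiring detection on all arrays of both stages left 6 of them, of which 2 rose. The smooth muscle actins Actg2 (at least 16.6-fold) and Acta2 (3.48) rose, and Des, which all muscle expresses, changed by 4.22. The cardiac genes Gata6 and Nppb fell, at -3.79 and -2.82, and Gata4, Tbx5 and Myh7 did not pass detection.

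Genes of connective tissue rose too. For fibroblast, cartilage and mesenchyme, of 51 genes on the array, 45 passed detection, 40 rose, 2 fell and 3 were not called, with a median of 3.98 (3.73 with genes below detection at one stage set to their bound) at the neuronal and 2.29 at the SNM stage. Where detection on all arrays of both stages was required, 25 genes remained and 20 rose. Col3a1, a fibrillar collagen, gave 5.39, 5.32 and 5.37 on the 3 ES arrays and 12.76, 12.87 and 12.84 on the 3 neuronal arrays, a log2 change of 7.47 (SE 0.156, adjusted p = 1.62e-16). Dcn and Lum, proteoglycans of collagen fibres, followed, Dcn with a log2 change of 5.82 and Lum at least 106-fold higher at the neuronal stage (adjusted p = 8.57e-21). Ogn and Mgp, matrix proteins of connective tissue and cartilage, changed by 7.002 and 6.86, and Col2a1, the cartilage collagen, by 4.38. Meox1 and Foxc2, factors of somites and their derivatives, were at least 9.55 and 27-fold higher. Fn1 was not called at 0.49, though it was with no scaling, at 0.78, and Col4a1, a basement membrane collagen, fell by 0.67, a call lost without neuronal array 1, at -0.58. ES-stage cultures were grown on fibroblast feeder cells. Of the 8 fibroblast or feeder cell markers, Dcn, Thy1, Col3a1 and Fn1 were detected on all 3 ES arrays, with mean log2 signals of 7.41, 6.32, 5.36 and 8.65, Col1a2 on 1 of them, and Col1a1, Lum and Postn on none. The part of feeder cells in these signals was not tested. Of 23 imprinted genes, 18 passed, 13 rose and 3 fell, with a median of 2.38. Igf2, a fetal growth factor, gave 8.74, 8.81 and 8.83 on the 3 ES arrays and 14.55, 14.57 and 14.55 on the 3 neuronal arrays, a log2 change of 5.76 (SE 0.0661, adjusted p = 4.31e-19), and H19, its neighbour, changed by 4.03. Phlda2, a growth suppressor of the placenta, changed by -4.27, and Igf2r by -1.53. Of 26 endothelial and blood genes 14 passed, 5 rose and 6 fell, against 27.8% and 33.4% of all probes. Emcn (endomucin), a sialoprotein of vessels, was at least 117-fold higher at the neuronal stage (adjusted p = 3.97e-19), while Pecam1, an adhesion molecule that ES cells also express, and Tek, an angiopoietin receptor, changed by -2.73 and -2.29. Of 22 microglial and macrophage genes 6 passed, with 1 rise and 3 falls. Laptm5, a lysosomal protein of blood cells, gave 11.16, 11.20 and 11.30 on the 3 ES arrays and 6.43, 6.43 and 6.41 on the 3 neuronal arrays, a log2 change of -4.80 (SE 0.116, adjusted p = 8.49e-16).

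The bars of list counts show all 31 lists, which together held 1100 distinct genes on the array. Of these, 833 passed detection, 439 rose and 218 fell. The lists were chosen for differentiation, so their share of calls is no estimate for the genome.

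**Figure D3:**
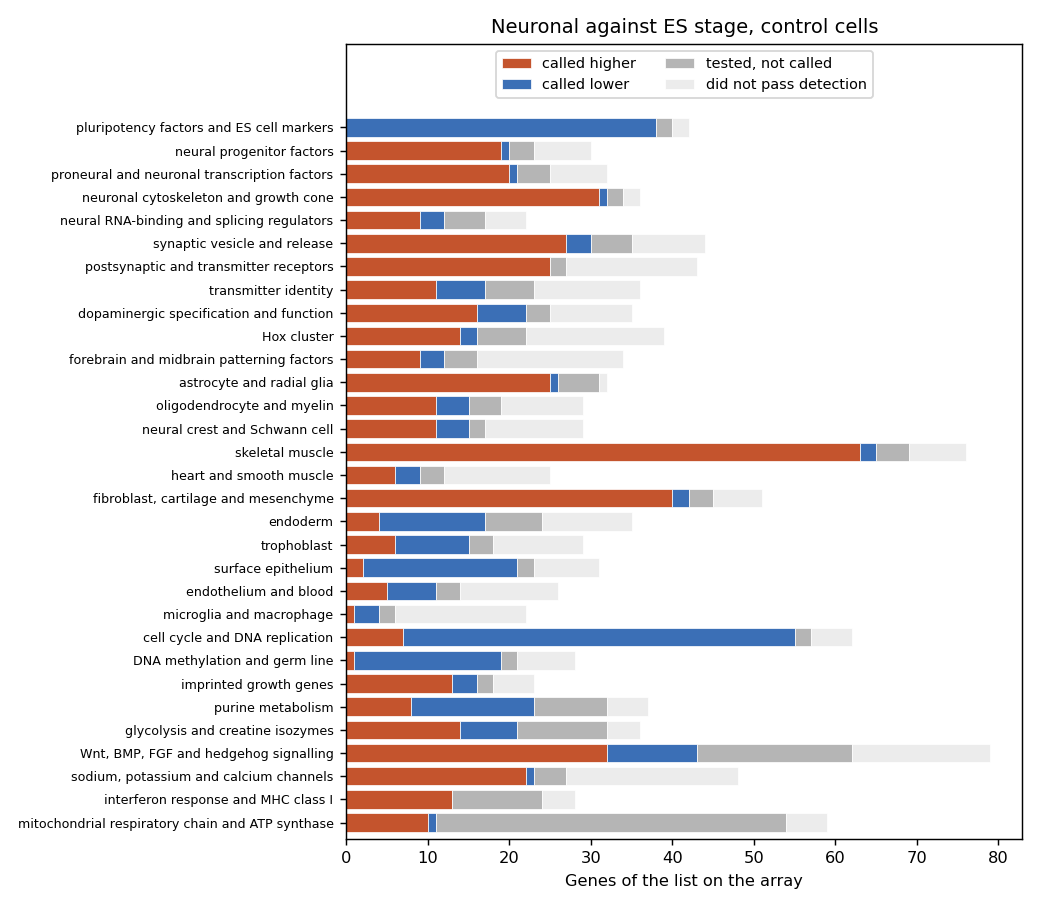
Number of genes on the array (x axis) in each of 31 lists, split into genes called higher, called lower, tested and not called, and not passing detection, neuronal against ES stage in control cells. Skeletal muscle holds 63 rises of 76 genes, and the pluripotency list holds 38 falls of 42.

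Metabolic lists changed in both directions. Of 37 purine metabolism genes, 32 passed, 8 rose, 15 fell and 9 were not called, with a median of -0.33, against 27.8% of all probes higher and 33.4% lower. The enzymes of de novo synthesis Ppat, Gart, Pfas, Paics, Adsl and Atic all fell, with log2 changes of -2.06, -1.88, -1.502, -1.37, -1.35 and -1.38. Ppat, the first enzyme of the pathway, gave 9.95, 10.14 and 10.11 on the 3 ES arrays and 8.06, 8.03 and 7.95 on the 3 neuronal arrays, a log2 change of -2.06 (SE 0.0726, adjusted p = 1.08e-13). Aprt, which salvages adenine as Hprt1 salvages hypoxanthine and guanine, was not called at -0.15. Adssl1 (2.89) and Ampd1 (2.73), the muscle enzymes of the purine nucleotide cycle, rose. Of 36 glycolysis and creatine genes, 14 rose and 7 fell, with a median of 0.37. The rises were led by muscle isozymes. Ckm, the muscle creatine kinase, was at least 31.8-fold higher at the neuronal stage (adjusted p = 1.15e-18), and Pgam2 and Eno3 changed by 4.97 and 4.43. Eno2, the neuronal enolase, changed by 3.06, and Eno1, the general form, fell by 0.76. Gapdh was not called at -0.08, though it was with the 75th percentile, at -0.59. Of 59 respiratory chain genes, 43 were tested and not called, 10 rose and 1 fell. With signals scaled to a common 75th percentile these counts became 2 and 6, so no direction is given for this list. Its largest rises were again muscle forms, Cox8b, at least 63.5-fold higher at the neuronal stage (adjusted p = 2.65e-18), and Cox6a2, with 5.30. Of 28 interferon and MHC class I genes, 13 rose and 0 fell. With detection required on all arrays of both stages, 17 of them remained and 7 rose. B2m, the light chain of class I molecules, gave 10.33, 10.33 and 10.40 on the 3 ES arrays and 11.78, 11.84 and 11.70 on the 3 neuronal arrays, a log2 change of 1.42 (SE 0.0633, adjusted p = 2.15e-12).

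Signalling genes were read for pathways that included hedgehog and FGF, whose ligands the protocol uses. Of 79 genes of Wnt, BMP, FGF and hedgehog signalling, 62 passed, 32 rose, 11 fell and 19 were not called. Of all probes tested, 27.8% were called higher and 33.4% lower. The median was 0.66 (0.56 with genes below detection at one stage set to their bound). Requiring detection on all arrays of both stages left 43 genes, of which 17 rose. Ligands that rose were Wnt5a (3.12), Wnt7a (at least 4.66-fold), Tgfb2 (3.86) and Shh, which was at least 2.7-fold higher at the neuronal stage (adjusted p = 1.51e-09). Of receptors, Fzd1 was at least 23.8-fold higher at the neuronal stage (adjusted p = 6.95e-17), and Smo, the transducer of hedgehog signals, changed by 1.25. Ptch1, a target of hedgehog signalling, was not called at 0.55, though it was with no scaling, at 0.99. Fgf4 and Fgf17 fell, at -2.51 and -2.82, and so did the FGF feedback genes Spry4 and Etv5, at -2.70 and -1.80. Dusp6, another target of FGF signalling, was not called at -0.08. Id2, Id3 and Id4, targets of BMP signalling, rose by 2.54, 1.77 and 2.54, and Id1 was not called at 0.20.

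Muscle and matrix genes stood out among the largest rises. Among the 12 largest rises of genes detected at both stages, Myl1, Myh8, Tnni2, Tpm2, Atp2a1 and Tnnc2 are sarcomere or calcium pump genes of muscle, and Col3a1, Ogn, Matn4 and Mgp encode matrix proteins. For Tpm2 the largest rise, 7.63, came from 1 of 3 probes, and the brightest probe gave 2.59. The other 2 were Cldn11 and Ptn, the growth factor pleiotrophin, with 5.70, 5.63 and 5.72 on the 3 ES arrays and 12.48, 12.53 and 12.76 on the 3 neuronal arrays, a log2 change of 6.91 (SE 0.135, adjusted p = 6.95e-17). Of genes detected on no ES array, the largest rises by bound were those of the probe scl000959.1_2, an array entry with no gene name, at least 374-fold, and of Inmt, a methyltransferase, at least 135-fold. Emcn, Chrna1, Tnnt3, Lum, Sln and Chrng followed. Beside Krt17 and Laptm5, the 12 largest falls of genes detected at both stages held Krt42, a keratin of the same cluster, at -4.73, Arc, an immediate early gene of neurons, with 9.44, 9.49 and 9.51 on the 3 ES arrays and 4.69, 4.93 and 5.42 on the 3 neuronal arrays, a log2 change of -4.46 (SE 0.169, adjusted p = 2.57e-13, detected on 2 of the 3 neuronal arrays), Sox17 and Phlda2. Of the remaining 6, 4 have a current RefSeq symbol. They are 1700006H03Rik (Gtsf1, a factor of the germ-line piRNA pathway), 1700123J19Rik (Rhox13, an X-linked homeobox gene), EG434729 (Fthl17f, a ferritin heavy chain-like gene) and OTTMUSG00000017677 (Gm14685, a predicted gene), with log2 changes of -4.62, -4.38, -4.37 and -4.31. No current symbol was matched for 1700061G19Rik and LOC100046087, which changed by -4.35 and -4.24. The largest falls by bound were Eif2s3y, at least 60.5-fold, Tex19.2, C130073F10Rik and another Krt42 probe, at least 25.8, 25.6 and 25.1-fold, and Aqp3, Plaur, Xlr5a and LOC385780, at least 16.4, 14.9, 13.5 and 11.5-fold.

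The genes chosen for ES cells also allow a look at the sequence before their starts. The octamer core ATGCAAA, part of the site that Pou5f1 binds, was searched on both strands in the 250 bases before RefSeq starts and is printed in capitals in the genes of the list shown here, which are 2 of the 5 that hold it.
Nanog (chr6:122707239-122707488, plus strand): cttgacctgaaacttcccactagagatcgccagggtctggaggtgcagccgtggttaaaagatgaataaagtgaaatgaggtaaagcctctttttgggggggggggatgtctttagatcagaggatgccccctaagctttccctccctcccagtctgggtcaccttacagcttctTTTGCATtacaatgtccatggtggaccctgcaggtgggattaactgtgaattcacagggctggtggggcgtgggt
Zfp42 (chr8:43307010-43307259, minus strand): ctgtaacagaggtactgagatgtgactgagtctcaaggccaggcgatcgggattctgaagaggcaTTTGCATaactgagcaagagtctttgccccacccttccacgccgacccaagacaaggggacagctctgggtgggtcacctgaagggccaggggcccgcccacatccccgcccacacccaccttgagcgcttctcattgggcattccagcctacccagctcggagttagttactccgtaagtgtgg
In both, the motif stands on the opposite strand, so it reads TTTGCAT. It begins 75 bases before the start in Nanog, whose first of 2 starts is shown, and 185 bases before it in Zfp42. Of 28 pluripotency genes with an entry, 5 (17.9%) held it before at least 1 start, as did 4.65% of all genes of the table and none of the 54 muscle genes.

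The change with stage in control cells was set against that in HPRT-knockdown cells, which carry an shRNA against HPRT and went through the same protocol, with no array shared. The difference between the changes was tested in limma over 22480 probes. Probes entered if detected on all arrays of any of the 4 groups compared. Those detected in a single group were thus taken in where they were high. The change was higher in knockdown cells for 3066 probes (13.6%) and lower for 2932 (13%). With background correction and no scaling between arrays these counts were 2499 and 3631, so their balance also depended on the scaling. Skeletal muscle genes differed between the cell types. For 64 of the 69 genes tested the change was lower in knockdown cells, and the median log2 change of the 69 there was -0.08. In control cells 27 genes of the list were detected on all arrays of both stages. Another 32 were detected on all neuronal and no ES arrays of these cells, so the filter favoured their rise in control cells. The 27 were not counted apart in this comparison. Acta1 changed by 6.54 in control and -0.88 in knockdown cells, a difference of -7.42 (SE 0.245, adjusted p = 4.66e-13). Myog changed by -0.08 in knockdown cells, a difference of -4.47 (SE 0.224, adjusted p = 9.28e-11). Pluripotency genes fell further in knockdown cells. For 28 of 41 genes tested the change was lower there, with a median of -4.01 against -2.70 in control cells. Pou5f1 gave a difference of -1.95 (SE 0.113, adjusted p = 6.13e-10) and Nanog a difference of -1.79 (SE 0.111, adjusted p = 1.48e-09). Sox2 went the other way, with -0.09 in knockdown cells, a difference of 1.41 (SE 0.19, adjusted p = 1.49e-05).

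Neuronal lists differed in both directions. Of 25 proneural and neuronal factors, 17 had a lower change in knockdown cells and 4 a higher one. These counts were 13 and 8 of 34 for the neuronal cytoskeleton, 14 and 5 of 36 for vesicles and release, and 9 and 7 of 30 for receptors. In the dopaminergic list 8 of 25 genes had a higher change in knockdown cells and 4 a lower one. Slc17a6 and Slc32a1 changed by 1.37 and 1.52 there, a difference of -3.65 (SE 0.17, adjusted p = 3.45e-11) and a difference of -2.90 (SE 0.202, adjusted p = 5.85e-09). Stmn2 and Ina, an intermediate filament of neurons, rose in control cells by 1.81 and 1.59 and changed by -1.31 and -2.03 in knockdown cells, with differences of -3.12 and -3.62, both called. Of 57 cell cycle genes, 34 had a lower change in knockdown cells and 1 a higher one. Genes of the oligodendrocyte and myelin list differed in the other direction. For 25 of 26 genes tested the change was higher in knockdown cells, and for none was it lower. In control cells 19 genes of the list had passed detection, and the others entered only through knockdown arrays. Olig2 and Mog entered through the knockdown neuronal arrays, where they were higher, so the filter favoured this direction for them. Mbp changed by 9.69 there, a difference of 6.04 (SE 0.186, adjusted p = 1.86e-13). Of 31 astrocyte genes, 17 had a higher change in knockdown cells and 3 a lower one. Among fibroblast genes, 20 of 48 had a lower and 8 a higher change there, and Col3a1 changed by 7.32 in knockdown cells, a difference of -0.14 (SE 0.221, adjusted p = 0.639). The muscle and fibroblast markers moved with the neuronal ones between stages, and their part in the differences between the cell types was not tested.

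**Figure D4:**
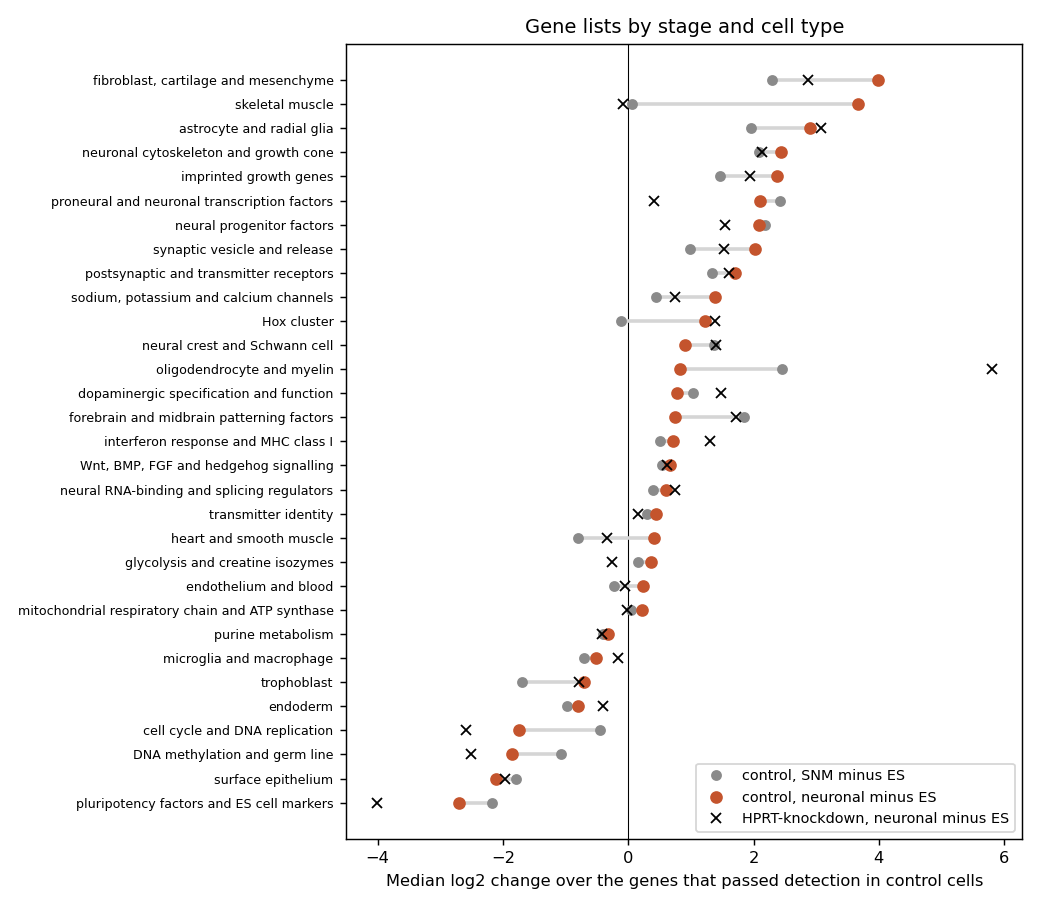
Median log2 change of each gene list (x axis) over the genes that passed detection in control cells, for control cells from ES to SNM stage (grey), control cells from ES to neuronal stage (orange) and HPRT-knockdown cells from ES to neuronal stage (crosses). Skeletal muscle genes are near 0 at the SNM stage and in knockdown cells, with medians of 0.06 and -0.08, against 3.67 in control cells at the neuronal stage.

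Transcripts of the Y chromosome fell between the stages. These probes were looked at after Eif2s3y appeared among the largest falls, so they are given as values. The array annotates 17 probes to this chromosome, of which 9 passed detection, and all 9 were lower at the neuronal stage, while 24 to 34.3% of the probes of the other chromosomes were called higher and 28.3 to 34.9% lower. Of the 9, only the brightest probe of Ddx3y and that of Rbmy1a1 were detected on all neuronal arrays. The others passed the filter only through the ES stage, where they were higher, so the filter favoured their fall. The count of 9 is thus no test against the other chromosomes. Eif2s3y, a translation initiation factor expressed in all male cells, gave 10.67, 10.64 and 10.58 on the ES arrays and 4.52, 4.38 and 4.29 on the neuronal arrays, at least 60.5-fold lower. Its SNM arrays had read 6.90, 6.99 and 6.70. Jarid1d (Kdm5d), a histone demethylase, gave 6.11, 6.34 and 6.26 on the ES arrays and 4.28, 4.56 and 4.37 on the neuronal arrays, at least 2.89-fold lower. Ddx3y, an RNA helicase, has 3 probes. The brightest remained detected and gave 10.80, 10.46 and 10.90 on the ES arrays and 8.18, 8.60 and 8.84 on the neuronal arrays, a log2 change of -2.18, while the other 2 were detected on no neuronal array. Zfy1, Usp9y, Uty and Rbmy1a1 were lower too. Of the 9 probes, 6 were detected on no neuronal array, and beside the brightest probe of Ddx3y those of Rbmy1a1 and Uty were still detected, on 3 arrays and 1 array. Over the 9 probes the median log2 change was -1.76 for control and -1.45 for knockdown cells, where each of the 9 was also lower at the neuronal stage.

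**Figure D5:**
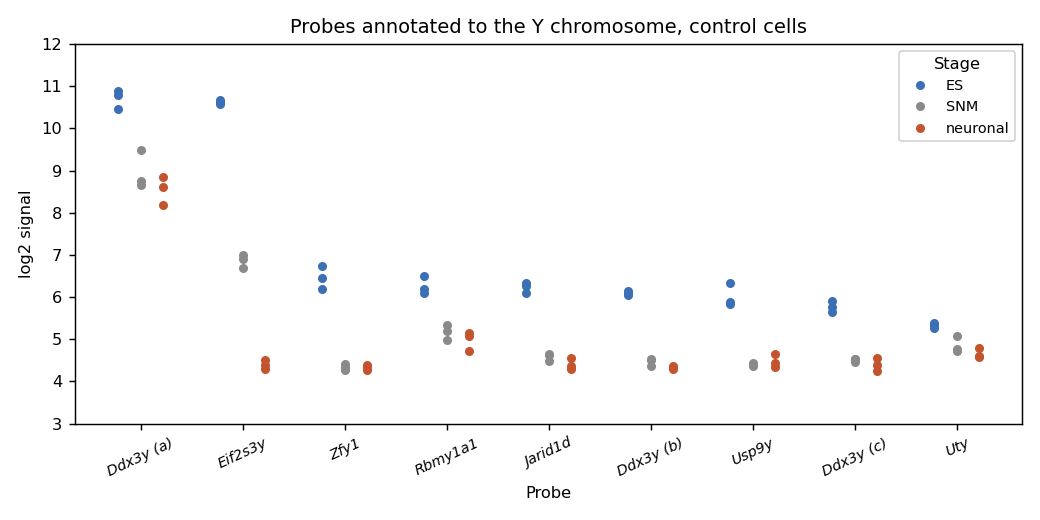
Log2 signal of the 9 tested probes annotated to the Y chromosome (x axis) on each array of control cells (y axis), at 3 stages. Letters mark the 3 probes of Ddx3y. All ES arrays lie above all neuronal arrays for each probe, and 6 probes are at background at the neuronal stage.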

How the data were processed

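Total RNA of control and HPRT-knockdown ESD3 cells of 3 stages was hybridized by the authors to Illumina MouseWG-6 v2 BeadChips. The deposited table gives for each probe and array an average signal intensity, linear, without background subtraction or scaling of any array, and a detection p-value. A second deposited table, whose 72 value columns carry names that match no sample label, was used for annotation of the probes only.

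Intensities of all 18 arrays were background-corrected with normexp on the negative controls inferred from the detection p-values (neqc, offset 16), quantile normalized and taken to log2 in limma 3.58.1 (R 4.3.3, data.table, version 1.17.8). One model with a coefficient for each of the 6 groups was fitted by lmFit and eBayes to probes with detection p under 0.05 on all 3 arrays of either stage. For the difference between the cell types, detection on all arrays of any of the 4 groups compared was required. P-values were adjusted by Benjamini-Hochberg over all probes tested, and probes past both 0.05 in adjusted p and 1.5-fold in size were called. An exact permutation test of 3 arrays against 3 cannot go below p = 0.1. Where a probe was detected on no array of one stage, the fold is given as a lower bound, with each dim array set to the higher of the lowest signal detected on it and the probe's own signal. A gene was represented by its brightest probe. No levels of different probes were compared.

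Named genes were Hprt1, the genes the study followed by qPCR or protein, the 12 largest rises and falls detected at both stages, the 8 largest rises and falls by bound, and members of the gene lists with the largest changes, with defining roles or against the rest, about 8 a list. List members beyond these and the Y-linked probes were chosen after their values were seen. Members and the 31 lists were chosen with earlier results of these data known. Current symbols were taken through RefSeq accessions, which matched for 27655 of 36692 probes that carry one. Promoter sequences came from RefSeq (GRCm38.p6). Those shown were matched by symbol, and for the motif shares list genes were matched by Entrez gene number or symbol. The scripts were tested on simulated data. Alternatives covered normalization, scaling, offset, detection filter, arrays in the fit, array number as a block, minimum fold, the methods' t-tests, and each array left out. Some genes are not reported here.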

Additional observations from a re-analysis of the deposited data

Results flagged for a closer look

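The change from the ES to the neuronal stage differed between HPRT-knockdown and control cells by the test of the difference itself for 3066 probes with a higher change in knockdown cells and 2932 with a lower one. Among the genes named by rule, the difference, as the log2 change in knockdown cells minus that in control cells, was called for the following, each given with its value. Of the stage markers it was lower for Pou5f1 (-1.95), Nanog (-1.79) and Tubb3 (-0.66) and higher for Sox2 (1.41), Olig2 (2.38) and Mbp (6.04). Olig2 was detected on 1 neuronal array of the control cells and on all 3 of the knockdown cells. Tubb3 was detected on all 3 neuronal arrays of control cells and on 1 ES array of knockdown cells. It was detected on no control ES or knockdown neuronal array. Its means in these groups, 4.56 to 5.06, stood near the detection limit, and so did its difference. Of genes of the muscle fibre it was lower for Myl1 (-7.39), Myh8 (-8.09), Tnni2 (-7.69), Tpm2 (-6.54), Atp2a1 (-7.04), Tnnc2 (-8.40), Chrna1 (-7.10), Tnnt3 (-7.28), Sln (-7.23) and Chrng (-6.51). Of genes of the matrix, vessels and other rises it was lower for Matn4 (-2.03), Lum (-2.72), Emcn (-1.68), Inmt (-1.24) and scl000959.1_2 (-8.81) and higher for Cldn11 (1.65) and Mgp (0.88). Of the largest falls it was lower for 1700123J19Rik (-0.96) and EG434729 (-0.87) and higher for Sox17 (1.52), LOC100046087 (2.32) and Plaur (1.09). Groups of 3 arrays are too small to be searched for arrays that stand apart.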

How the results depend on the processing

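No probe was called in opposite directions between the fit reported and any alternative, and no array left out moved a count of calls by 1.5 times. Leaving out each array in turn gave 5931 to 5986 probes higher, 7117 to 7269 lower, 5974 to 6087 whose change differed between the cell types, 235 to 238 of the named genes called and 707 to 715 calls over the lists. Of the 5955 probes higher, signals scaled to a common 75th percentile without background correction called 3846 and detection on all arrays of both stages 3448. Of the 7160 lower, a minimum fold of 2 left 4346. The 5998 probes whose change differed between the cell types became 3809 with quantile normalization and no background correction, 3941 with the 75th percentile, 3436 with detection at both stages and 2744 with a minimum fold of 2. Detection at both stages, which removes genes below detection at one stage by construction, left 145 of 237 named genes called and 436 of 709 calls over the lists. Among single genes, Nr4a2 changed sign with the 75th percentile, at -0.012, and 15 others lost their call there, as did 12 with quantile normalization and no background correction, 12 with an offset of 50 and 10 with no scaling. Calls were gained by Gapdh and Spp1 with the 75th percentile and by Chrne, Ddc, Fn1, Hes1 and Ptch1 with no scaling. The methods' paired t-test ended the calls of Cdkn2c, Col4a1 and Ptbp2, and after adjustment also that of Spr. A minimum fold of 2 ended 22 calls, that of Hprt1 among them. Averaging all tested probes of a gene gave 699 calls over the lists. The cause was not tested.

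Array numbers did not pair the samples: the deviations of same-numbered ES and neuronal arrays correlated at -0.172, -0.0959 and 0.0994 across probes. With the array number as a replicate block, 5969 probes were higher, 7183 lower and 6121 differed between the cell types, and the block left 237 named genes and 709 list calls. The methods' t-test gave 5912 higher and 7099 lower unadjusted, and 5887 and 7072 adjusted. Its paired form gave 5608 and 6710 unadjusted, and 5344 and 6363 adjusted. Signals near 4.37 are background, so changes of dim probes are bounded by detection, and pooled RNA carries no spread between cultures.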

Other observations

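Members of the lists that went against the rest of their list were looked at after their values were seen. Ctsq, Ctsj and Prl3b1, which encode placental cathepsins and a placental prolactin-like hormone, rose while most other trophoblast genes that were called fell. Ctsq gave 4.42, 4.79 and 4.55 on the 3 ES arrays and 6.93, 6.86 and 6.73 on the 3 neuronal arrays, at least 3.92-fold higher at the neuronal stage (adjusted p = 4.95e-12). Prl3b1 gave 4.19, 4.30 and 4.21 on the 3 ES arrays and 6.74, 6.82 and 6.71 on the 3 neuronal arrays, at least 3.71-fold higher at the neuronal stage (adjusted p = 2.49e-12). Ctsj gave 7.16, 7.23 and 7.08 on the 3 ES arrays and 9.10, 9.14 and 9.13 on the 3 neuronal arrays, a log2 change of 1.97 (SE 0.0989, adjusted p = 1.04e-11). Uqcrb, a subunit of respiratory complex III, was the 1 respiratory chain gene that fell, with 8.79, 8.86 and 8.80 on the 3 ES arrays and 6.04, 6.04 and 6.14 on the 3 neuronal arrays, a log2 change of -2.74 (SE 0.0878, adjusted p = 2.96e-14). Ldhc, the lactate dehydrogenase of the germ line, fell among glycolysis genes that mostly rose or were not called, with 7.51, 7.60 and 7.62 on the 3 ES arrays and 4.55, 4.67 and 4.54 on the 3 neuronal arrays, at least 7.29-fold lower at the neuronal stage (adjusted p = 1.18e-13).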
